A study of Homo sapiens with 4 samples.

Results

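Complement genes were followed in cells labelled HepG2 and in K562 cells, with and without an siRNA against ADAR1. That enzyme converts adenosine to inosine in double-stranded RNA. The 8 genes C1R, C1S, C3, CFB, SERPING1, CD46, CD55 and CD59 were chosen by name, with earlier results of these data known. Of these, 6 had a transcript cluster annotated to that symbol alone, among 14232 genes so named on the array, and each had 1 such cluster. The probes of CD46 are shared with CR1L in the platform annotation and those of CD59 with C11orf91, so their values are not analysed here. CFB had a second cluster shared with its neighbour C2, which was left out too.

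HepG2 was derived from a liver carcinoma, and K562 from a chronic myeloid leukaemia, with traits of red cell precursors. The arrays labelled HepG2 showed few hepatocyte markers, as described below, so HepG2 is used here as a label only. Cells of each line carried, by stable transfection, a plasmid with either the ADAR1 siRNA (ADARkd) or a scrambled siRNA (SCR), the control. Each line and arm gave 1 array, 4 in all, so no group was replicated, and a difference between arms within a line has no replicate check or p-value. The labels do not say whether the transfected cells were single clones, and the siRNA used was the best of several tried, by ADAR reduction.

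Complement is a cascade of plasma proteins, made largely by the liver, that marks targets for uptake and can form pores in membranes. C1r and C1s are the serine proteases of the C1 complex, which starts the classical pathway. C3 is the central component whose cleavage all pathways share, and factor B (CFB) supplies the protease of the alternative pathway convertase. SERPING1 encodes C1 inhibitor, which inactivates C1r and C1s. CD46, CD55 and CD59 protect a cell's own membrane: CD46 is a cofactor for cleavage of C3b and C4b, CD55 speeds the decay of convertases, and CD59 blocks the membrane attack complex. CD55 and CD59 are held in the membrane by a glycosylphosphatidylinositol (GPI) anchor.

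C1R was lower in 1 knockdown, whereas CFB and CD55 differed little there. Of these, CD55 alone was above the expression filter in both lines. The sequences before the starts of these genes are shown. They are the 250 bases before each start in a RefSeq table of GRCh38.p14, 5′ to 3′ on the gene's strand. C1R has 2 starts in that table, with the windows chr12:7092446-7092695 and chr12:7091894-7092143 on the minus strand. CFB has chr6:31945845-31946094 and CD55 has chr1:207321428-207321677, both on the plus strand. Of the 8 genes, 5 matched the table; C1S, C3 and SERPING1 did not. Capitals mark matches, on either strand, to a STAT site (TTCNNNGAA), the core of an interferon response element (GAAANNGAA), a C/EBP site (TTGCNNAA), a TATA box (TATAAA) or the NF-kB consensus.

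C1R, upstream start: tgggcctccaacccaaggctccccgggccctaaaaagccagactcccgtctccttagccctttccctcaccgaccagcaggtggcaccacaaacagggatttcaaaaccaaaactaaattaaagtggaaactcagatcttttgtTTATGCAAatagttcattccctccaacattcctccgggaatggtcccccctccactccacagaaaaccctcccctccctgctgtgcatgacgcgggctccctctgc
C1R, downstream start: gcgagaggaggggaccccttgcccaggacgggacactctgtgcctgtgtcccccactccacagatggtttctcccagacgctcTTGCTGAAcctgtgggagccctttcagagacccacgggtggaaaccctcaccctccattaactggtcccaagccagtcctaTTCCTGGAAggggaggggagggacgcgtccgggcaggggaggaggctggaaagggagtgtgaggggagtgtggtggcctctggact
CFB: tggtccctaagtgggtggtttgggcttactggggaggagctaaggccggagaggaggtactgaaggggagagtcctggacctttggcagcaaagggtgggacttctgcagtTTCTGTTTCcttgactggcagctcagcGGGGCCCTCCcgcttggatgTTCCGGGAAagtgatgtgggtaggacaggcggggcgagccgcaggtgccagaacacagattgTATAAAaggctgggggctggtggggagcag
CD55: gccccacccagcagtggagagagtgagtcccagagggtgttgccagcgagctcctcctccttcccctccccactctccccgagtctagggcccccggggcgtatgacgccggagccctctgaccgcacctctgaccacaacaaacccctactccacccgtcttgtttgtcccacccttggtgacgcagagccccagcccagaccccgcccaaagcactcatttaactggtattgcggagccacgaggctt

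The upstream window of C1R held 1 C/EBP match, TTATGCAA, from 106 to 99 bases before the start, and 1 match to TGACG, the core of a cyclic AMP response element, from 19 to 15. The downstream window held 1 C/EBP match, TTGCTGAA, from 167 to 160 bases before the start, and 1 STAT match, TTCCTGGAA, from 86 to 78. CFB held 4 capitalised matches that do not overlap: TTCTGTTTC (interferon response core) from 139 to 131 bases before the start, GGGGCCCTCC (NF-kB) from 112 to 103, TTCCGGGAA (STAT) from 92 to 84, and TATAAA from 30 to 25. CD55 held none of these 5 motifs, but 1 GC box (GGGCGG on the other strand) and 2 matches to TGACG, which the upstream window of C1R holds as well. These letters are common: over the 35116 windows of the table, 6.57% held the STAT letters, 6.88% the interferon response core, 9.05% C/EBP, 10.7% TATAAA, 9.96% the NF-kB consensus, 42.6% the GC box and 21.2% TGACG. The matches are descriptions of the sequence, and binding was not measured.

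The deposited values are intensities on a linear scale, given here as such or as log2. ADAR stood at an intensity of 497 in the SCR array labelled HepG2 and 154 in its ADARkd array, and at 254 and 110 in K562, so 31.0% and 43.2% of the control remained. A gene was kept in a line when its mean log2 value there reached the median of all genes, 5.31 for HepG2 and 5.28 for K562; 7116 genes were kept in each line. Of 17 measured hepatocyte markers, 1 was kept on the arrays labelled HepG2, and albumin (ALB), AFP, APOA1 and TTR were under the filter, so those arrays are called by their label only. The erythroid list had 9 measured genes, of which K562 kept 7, HBZ and RHAG among them, and the arrays labelled HepG2 kept 1. Of fibroblast and stromal markers 8 of 12 were kept for HepG2 and 1 of 12 for K562, macrophage markers for 1 and 2 of 8, and lymphocyte markers for 0 of 11 in either line. In such bulk RNA, fewer cells of a type and less RNA per cell cannot be told apart.

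**Figure D1:**
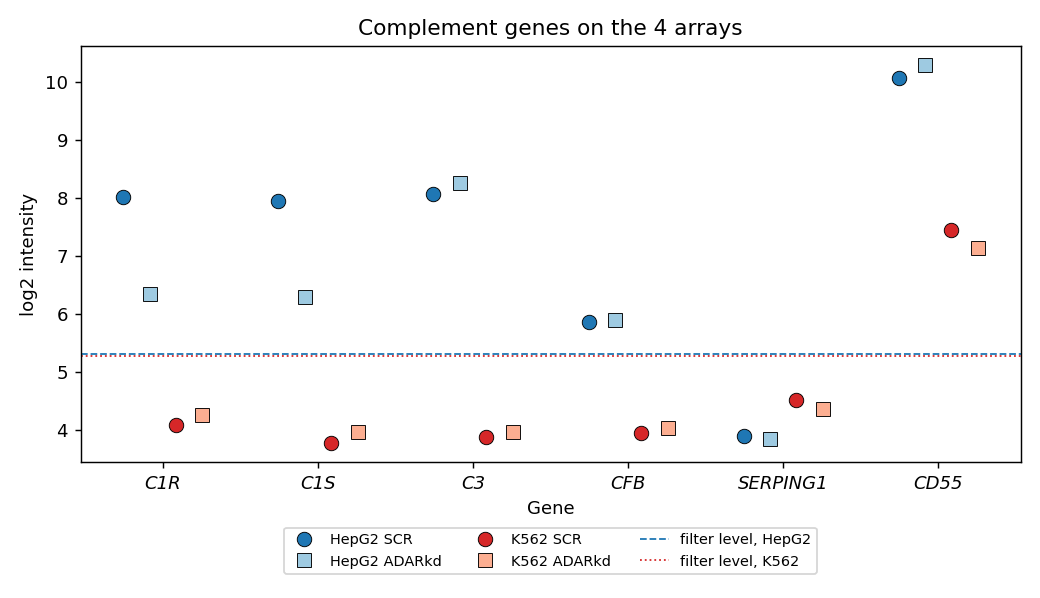
Log2 intensity (vertical axis) of the 6 complement genes on each of the 4 arrays; circles are SCR, squares ADARkd, blue shades the arrays labelled HepG2, red shades K562, and lines the filter level of each line. C1R and C1S drop from 8.01 and 7.94 to 6.34 and 6.29 between the HepG2 arms, C3, CFB and CD55 stay within 0.22 there, and SERPING1 is under the filter on all 4 arrays; probes of different genes are not on a common scale.

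The classical pathway proteases were the members with a large knockdown difference. C1R had an intensity of 257 in the SCR array labelled HepG2, 80.8 in its ADARkd array, 17.0 in K562 SCR and 19.2 in K562 ADARkd. Its HepG2 SCR array was thus the highest, its HepG2 ADARkd array came next, and both K562 arrays were low. Between the HepG2 arms the log2 difference, ADARkd minus SCR, was -1.67, or 3.18-fold lower, leaving 31.5% of the control intensity.

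C1S, the protease that C1r activates, was measured at 246 in HepG2 SCR, 78.0 in HepG2 ADARkd, 13.6 in K562 SCR and 15.7 in K562 ADARkd. As for C1R, both HepG2 arrays lay above both of K562, and HepG2 SCR was the highest. The log2 difference between the HepG2 arms was -1.66, or 3.15-fold lower, leaving 31.7%. C1R and C1S, which neighbour each other in the RefSeq gene table, ranked 27 and 30 from the lowest among the 7116 genes kept on those arrays; ADAR itself ranked 25. In K562, where both lay under the filter, the log2 differences were 0.17 and 0.20.

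On the same arrays, fibroblast and stromal markers moved as well: 4 of the 8 kept were at least 2-fold lower in ADARkd and 0 higher, against 1.57% and 2.46% of all kept genes. The 4, named after their values were seen, were COL3A1 (-2.42), FN1 (-1.80), FAP (-1.66) and COL1A1 (-1.12). All but FN1 were under the filter level in ADARkd and were kept only through the SCR array, so they had to differ downward. The count of 4 is thus partly set by the filter. LUM (0.78) and DCN (0.64) had differences of the other sign. The median log2 difference of the 8 was -0.74, although the summed intensity of the 12 measured was 1660 in SCR and 1860 in ADARkd. In K562 the sums were 258 and 264. The part of a change in cell state or makeup in the values of C1R and C1S was not tested.

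C3 and factor B, which form the alternative pathway convertase, differed little between arms. C3 was measured at 268 in HepG2 SCR, 304 in HepG2 ADARkd, 14.7 in K562 SCR and 15.6 in K562 ADARkd, so the lines were far apart and the arms close. Its log2 difference between arms was 0.18 for HepG2 and 0.09 in K562. CFB had 57.8 and 59.2 on the arrays labelled HepG2 and 15.4 and 16.3 in K562. It was again higher in 1 line and level between arms, but on the arrays labelled HepG2 it stood only a little above the filter level. Its log2 differences were 0.03 and 0.08. In K562 both genes were under the filter, and after quantile normalization their differences there were -0.05 and -0.06, so no direction can be read from them.

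Among the inhibitors, SERPING1 was under the filter on every array, at an intensity of 14.9 in HepG2 SCR, 14.3 in HepG2 ADARkd, 22.8 in K562 SCR and 20.6 in K562 ADARkd. The K562 arrays were the brighter pair, by 1.53-fold between the SCR arrays. The gene was not tested, since background can set values this dim.

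CD55, the decay-accelerating factor, was kept in both lines. Its intensity was 1070 in the SCR array labelled HepG2, 1250 in the ADARkd array, 174 in K562 SCR and 141 in K562 ADARkd. Both HepG2 arrays lay above both of K562, and the arms ran in opposite directions. The log2 difference was 0.22 for HepG2, or 0.14 after quantile normalization and 0.06 after loess. In K562 it was -0.31, or -0.22 after quantile normalization and -0.23 after loess. In limma's fit with line and arm as terms, the shared arm effect on CD55 was -0.04 ± 0.22 on the log2 scale (SE, 2 arrays per arm; Benjamini-Hochberg adjusted p = 1). It was the only member kept in both lines, as that fit requires.

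**Figure D2:**
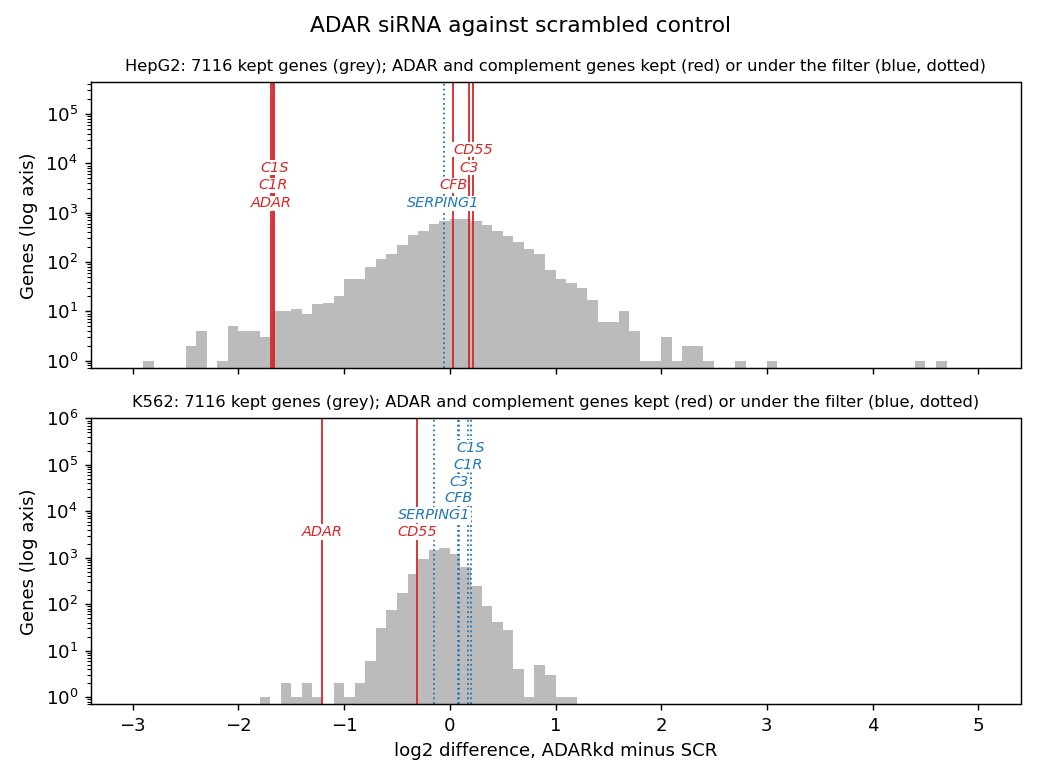
Histograms of the log2 difference, ADARkd minus SCR (horizontal axis), over the 7116 genes kept in each line, with the number of genes on a log axis; vertical lines mark ADAR and the 6 complement genes, solid red where kept and dotted blue where under the filter. On the arrays labelled HepG2, C1R (-1.67) and C1S (-1.66) stand beside ADAR (-1.69) in the left tail, while CFB, C3 and CD55 lie in the bulk of genes.

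The spread over all genes sets the scale for these differences. Of the genes kept on the arrays labelled HepG2, 4.03% were at least 2-fold apart, 1.57% lower and 2.46% higher in ADARkd (112 and 175 genes). The split moved with the scaling, to 124 higher and 140 lower after quantile normalization and 132 and 135 after loess, and the median difference of kept genes went from 0.11 to 0.01 under both. Of the 5 chosen genes kept there, 2 (C1R and C1S) were at least 2-fold lower and 0 higher, and the median of the 5 was 0.03. Relative to the median of all kept genes, C3 and CD55 were thus nearly level. C1R differed by -1.78 after quantile normalization and -1.68 after loess, and C1S by -1.77 and -1.65.

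In K562, 0.155% of the 7116 kept genes were at least 2-fold apart, and CD55, the 1 of the chosen genes kept there, was not among them. The difference of CD55 compares with a median of -0.07 and a 2.5th percentile of -0.45 over all genes kept there. In the fit over both lines 0% of 6204 genes passed an adjusted p under 0.05 by limma (0 genes, with 179 at an unadjusted p under 0.05). ADAR, the siRNA target, did not pass either, at -1.45 ± 0.22 (limma adjusted p = 0.871, the lowest in this fit). A count of 0 therefore cannot show that shared arm effects are absent. The difference between the lines' arm effects, -1.84 for C1R and -1.86 for C1S on the log2 scale as HepG2 less K562, was not tested, since a model with that term fits the 4 arrays exactly. Both genes were under the filter in K562, where a fall could hardly be seen. These 2 values therefore cannot show whether the knockdown difference is particular to 1 line.

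The lines were compared next, over both arms, to describe where complement genes were expressed. Of the chosen genes, all 5 that were tested were higher on the arrays labelled HepG2 than in K562. Among the 8028 genes tested, 14.7% were higher there, 10.3% were higher in K562, and 25.1% passed in either direction. Because the genes were chosen with earlier results of these data known, the count of 5 is a description only. The threshold was an adjusted p under 0.05 and a 2-fold difference by limma, and SERPING1 was not tested. A gene entered this fit if kept in either line, and C1R, C1S, C3 and CFB entered through the arrays labelled HepG2 alone, so that for them a higher level there was part of the entry condition.

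C3 had the widest gap of the members, with a K562 minus HepG2 difference of -4.24 ± 0.19 in log2 units (SE, n = 2 arrays for each line; adjusted p = 9.94e-06 by limma). The mean log2 levels were 8.16 and 3.92, 18.9-fold apart. It was 18.3-fold between the SCR arrays and 19.4-fold between the ADARkd arrays, so the gap hardly depended on the arm. CFB differed by -1.88 ± 0.22 (adjusted p = 0.000498), 3.75-fold in SCR and 3.63-fold in ADARkd.

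C1R differed by -3.0 ± 0.40 (limma adjusted p = 0.000998) and C1S by -3.24 ± 0.40 (0.000717). Their errors were larger than that of C3 because the HepG2 arms lay apart while the K562 arms did not. That difference between the arm effects of the lines enters the spread of this fit. The gap for C1R was 15.1-fold between the SCR arrays and 4.22-fold between the ADARkd arrays, and for C1S it was 18.0-fold and 4.97-fold. Without the SCR array labelled HepG2 the differences were -2.16 and -2.42, and without its ADARkd array -3.83 and -4.07, with line as the only term.

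CD55 differed by -2.89 ± 0.21 (limma adjusted p = 6.3e-05), 6.15-fold between the SCR arrays and 8.89-fold between the ADARkd arrays. It is the member whose line difference rests on values above the filter on all 4 arrays. For C1R, C1S, C3 and CFB the K562 intensities of 13.6 to 19.2 were under the filter, and since background can dominate such dim probes the sizes of their line differences are uncertain. The fit's single residual degree of freedom comes from how the arm effects of the lines differ, and nothing in the labels says that the 2 arrays of a line came from separate cultures.

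**Figure D3:**
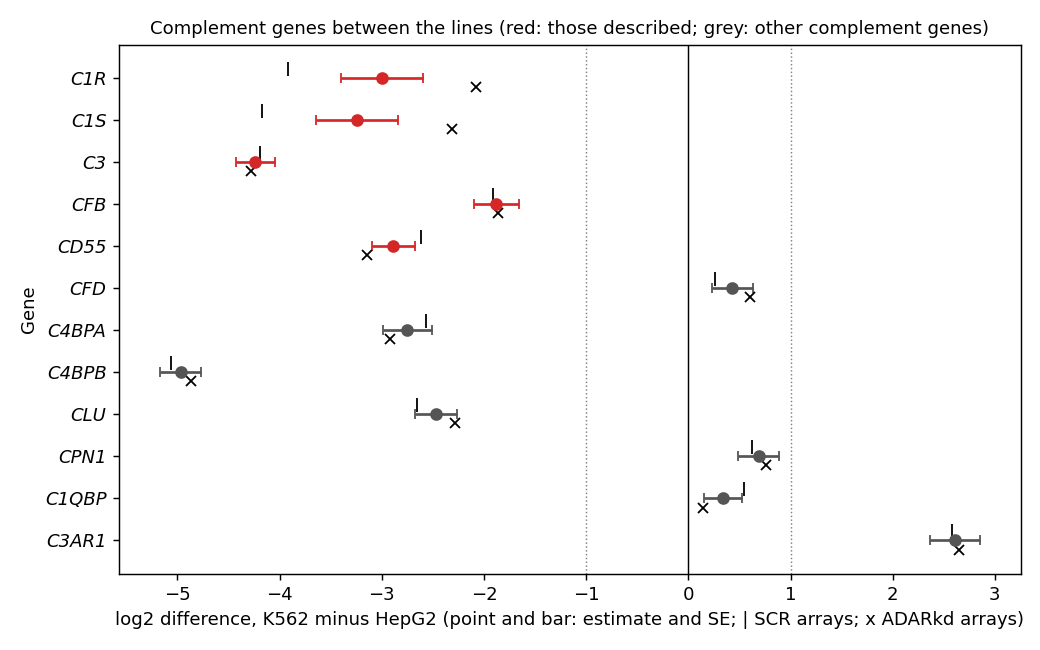
Log2 difference, K562 minus HepG2 (horizontal axis), of the complement genes tested; points and bars are limma estimates and SE over 2 arrays per line, upright ticks the SCR arrays and crosses the ADARkd arrays alone, and dotted lines 2-fold. The 5 genes described (red) and C4BPA, C4BPB and CLU lie left of the 2-fold line, C3AR1 lies right of it, and the tick and cross of C1R and C1S are far apart.

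The other complement genes came from lists by role. Of the recognition and initiation genes (C1q chains, mannose-binding lectin, ficolins, collectins and their proteases), 9 were measured and 0 kept in either line. The same held for the 6 genes of the membrane attack complex. Of the remaining convertase genes, 3 were measured and 1 was kept, CFD, the protease that cleaves factor B. CFD had log2 differences between arms of -0.39 for HepG2 and -0.05 in K562, and its line difference of 0.43 ± 0.20 did not pass by limma (adjusted p = 0.134).

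Among these lists by role, soluble regulators had the most kept genes, 5 of 8 measured on the arrays labelled HepG2 and 2 in K562. Both counts include the mitochondrial protein C1QBP. None of the kept genes of this list was at least 2-fold apart between arms in either line. The shares of all kept genes were 4.03% for HepG2 and 0.155% in K562. C4BPB and C4BPA, the chains of the C4b-binding protein that restrains the classical pathway, were higher on the arrays labelled HepG2, by limma differences of -4.97 ± 0.20 and -2.75 ± 0.24 for K562 minus HepG2. CLU (clusterin), which blocks assembly of the attack complex, was higher there as well (-2.47 ± 0.21). These 3 genes were kept on the arrays labelled HepG2 alone and are dim in K562, so the filter fixed their direction and the sizes are uncertain. Between the HepG2 arms C4BPB was level (-0.02), C4BPA stood at 0.43 and CLU at -0.69.

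CPN1, the catalytic chain of carboxypeptidase N that inactivates anaphylatoxins, was brighter in ADARkd in both lines. It was measured at 52.6 in HepG2 SCR, 90.8 in HepG2 ADARkd, 80.8 in K562 SCR and 153 in K562 ADARkd, log2 differences of 0.79 and 0.92. The shared arm effect on CPN1, 0.86 ± 0.20, did not pass by limma. C1QBP, a mitochondrial protein that can bind C1q, differed by 0.53 and 0.14. Of 9 measured receptors, 1 was kept, C3AR1, which binds the anaphylatoxin C3a: it was higher in K562 by 2.61 ± 0.24 (limma adjusted p = 0.000182) and level between arms (-0.10 and -0.04). C3AR1 passed the filter through K562 alone, which fixed that direction.

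Cytokines and factors known to induce complement genes in liver cells were described beside them. The list also held receptors of such cytokines and the feedback inhibitor SOCS3. It was chosen with earlier results of these data known, so its counts are descriptions only. Of 13 kept on the arrays labelled HepG2, 3 were at least 2-fold higher in ADARkd and 0 lower, against 2.46% and 1.57% of all kept genes. They were IL6 (log2 difference 4.46), IL1A (2.32) and IFNGR1, a chain of the interferon gamma receptor (1.18). IL6 stood under the filter in the SCR array, at 3.16, and was kept only through the ADARkd array, at 7.61, so that it had to differ upward and its size is uncertain. The median of the 13 was 0.45. In K562, where 9 were kept, 0 were 2-fold apart, against 0.155% of all kept genes, and the median was -0.19.

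Of 13 inducer-list genes tested between the lines, 7 passed as higher on the arrays labelled HepG2 and 0 as higher in K562. Over all genes tested, the shares were 14.7% and 10.3%. All 13 were kept on the arrays labelled HepG2, and OSMR, IL1A, IL1B and IL6 through those arrays alone, so the direction is partly set by the filter. OSMR, the oncostatin M receptor, differed by -6.29 ± 0.20 for K562 minus HepG2, IL1A by -3.45 ± 0.53, IL1B by -2.44 ± 0.31, CEBPB by -1.88 ± 0.23, IL6ST, the signalling chain shared by the IL-6 family, by -1.75 ± 0.35, SOCS3, a feedback inhibitor of that family, by -1.10 ± 0.21 and CEBPD by -1.04 ± 0.21. Thus C1R and C1S were dimmer in the same array in which IL6, IL1A and IFNGR1 were brighter; whether these differences are linked was not tested.

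GPI anchor synthesis was included because CD55 needs that anchor. Of 26 measured genes, 23 were kept in each line, with median differences between arms of 0.01 for HepG2 and -0.02 in K562. In either line 0 of the 23 were 2-fold apart between arms, against 4.03% and 0.155% of all kept genes. PIGA, of the first step of the pathway, stood at 0.75 and PIGM at 0.57 on the arrays labelled HepG2. Of 24 tested between the lines, 2 passed as higher on the arrays labelled HepG2 and 1 as higher in K562. The shares of all genes tested were 14.7% and 10.3%. PGAP2 (-2.75 ± 0.19) and PGAP4 (-1.47 ± 0.21), which act on anchors after attachment, were higher on the arrays labelled HepG2 by limma. PIGW (1.29 ± 0.22) was higher in K562. PGAP4 was kept on the arrays labelled HepG2 alone, so the filter fixed its direction.

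**Figure D4:**
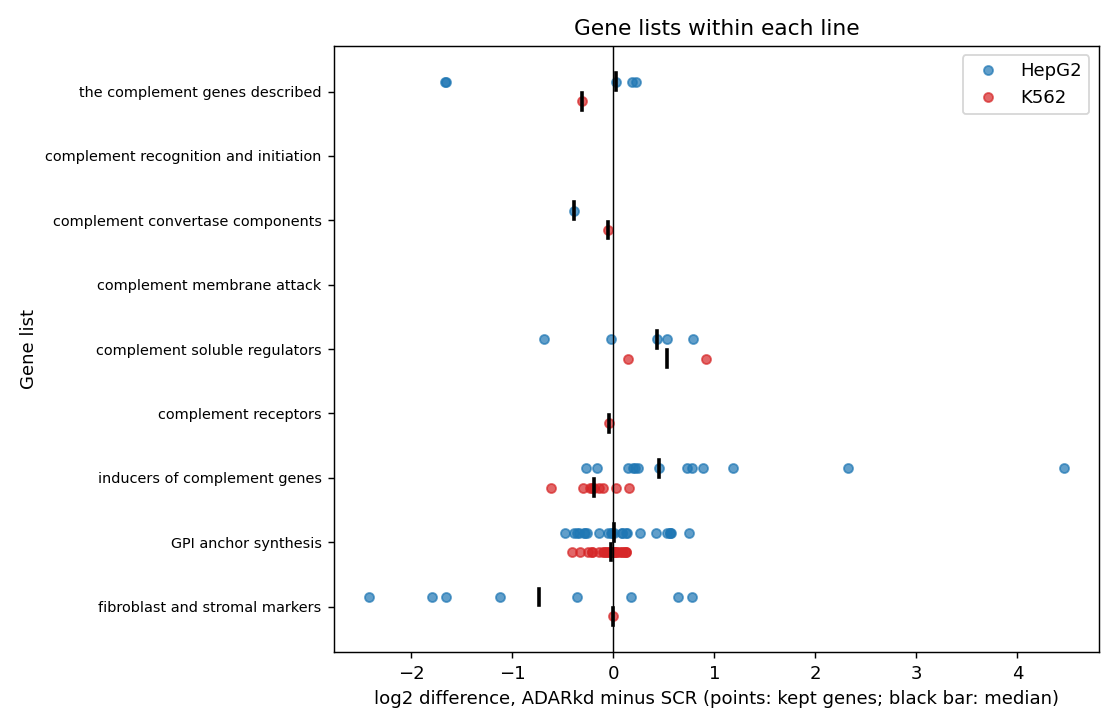
Log2 difference, ADARkd minus SCR (horizontal axis), of the kept genes of each list (rows); blue points are the arrays labelled HepG2, red points K562, and black bars medians. The inducers reach 4.46 on the arrays labelled HepG2, the fibroblast and stromal markers reach -2.42, and the K562 points plotted lie between -0.62 and 0.92.

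The genes nearest in pattern to each member were found by the Euclidean distance over the 4 arrays between log2 values, each gene taken relative to its own mean, among the 8027 other genes kept in either line. For C1R they were SLC6A15 (0.16), C1S (0.25) and TSHZ2 (0.35), and for C1S they were TSHZ2 (0.22), C1R (0.25) and IGFBP7 (0.34). Each of the proteases thus ranked as number 2 for the other. C3 lay nearest to MET (0.12), CD44 (0.14) and LXN (0.16), CFB to CYP27C1 (0.06), RBPMS (0.08) and LGMN (0.09), and CD55 to UBL3 (0.13), SLC38A1 (0.13) and TEAD1 (0.15). All other pairs of members ranked at number 212 or beyond: from C1R, CD55 lay at 1.38 (rank 227), CFB at 1.64 (373) and C3 at 1.80 (495). These distances describe 4 arrays, of which the line difference takes most of the range.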

How the data were processed

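Total RNA was labelled with biotin for Affymetrix whole-transcript arrays, per the labels' protocols. The authors deposited 1 linear, positive intensity for each transcript cluster and array. The submitters' processing notes name RMA, without a version, and hg18; further steps were not given in the sources used here. Column medians were 36.7, 36.1, 36.7 and 37.0. Of 17881 clusters, 14432 had 1 symbol in the platform annotation, 2408 several and 1041 none. RefSeq's GRCh38.p14 gene table held 14404 of the single symbols by Entrez number. The brightest cluster stood for a gene (197 genes had several).

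Log2 was taken without an offset. Models with line and arm used limma 3.58.1 under R 4.3.3 (two-sided tests from lmFit and trended eBayes, adjusted by Benjamini-Hochberg) over all genes kept in either line (8028) for the lines, or in both (6204) for the arm, with 1 residual degree of freedom; the script was tested on simulated data. P-values from so few arrays are approximate, and the number of arrays limits every value. Figures used matplotlib 3.10.9. The genes and lists were chosen with earlier results of these data known. Named from the complement, inducer and GPI lists were genes 2-fold apart between arms, genes past the line threshold, and otherwise the largest within-line differences; PIGA, PIGM, CPN1, C1QBP and 6 stromal markers were added after their values were seen.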

Additional observations from a re-analysis of the deposited data

Results flagged for a closer look

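CD55 differed in opposite directions between arms in the lines, 0.22 for HepG2 against -0.31 for K562 on the log2 scale. The medians of all kept genes were 0.11 and -0.07. After loess the CD55 values were 0.06 and -0.23. Each arm of a line had 1 array, and the difference between the lines was not tested.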

How the results depend on the processing

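The line term of the fit pairs the arms within each line; no block by replicate number could be added, since each line and arm has 1 array. With log2(value + 16), 186 genes on the arrays labelled HepG2 and 7 in K562 were at least 2-fold apart between arms, against 287 and 11. A filter at the 75th percentile gave 116 and 1 such genes, and 1159 genes passed between the lines, against 2014. With no filter, 30 genes were 2-fold apart in K562. Leaving out each array in turn, with line as the only term, 1489 to 2162 genes passed between the lines. The shared arm effect gave 0 genes in every alternative run, so ADAR, the siRNA target, did not pass in any of them. C1R, C1S, C3, CFB and CD55 kept their direction and their call between the lines in every alternative that tested them, and CFB was not kept at the 75th percentile. Where a filter was used, C1R, C1S, C3 and CFB entered through the arrays labelled HepG2 alone, which set their direction. All alternatives drew on the same arrays. The HepG2 differences of C1R ran from -1.78 to -1.49 and those of C1S from -1.77 to -1.48.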
